A study of Homo sapiens with 80 samples.

Results

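A set of 9 dual specificity phosphatases that act on MAP kinases was followed in Jurkat T cells exposed to 9 g, to 300 g or to heat. The 9 genes were DUSP1, DUSP2, DUSP4, DUSP5, DUSP6, DUSP7, DUSP8, DUSP10 and DUSP16, taken from the count table by matching its Ensembl identifiers to these symbols, out of 60663 genes in all. Jurkat is an established human leukaemia T cell line, used here as 1 clone (E6-1). In the 9 g experiment the cells were spun inside pipettes. The groups hypg20s and hypg75s had 20 and 75 s of it, and the groups hypg3, hypg5, hypg7, hypg9, hypg15 and hypg60 had the number of minutes in their name. Control pipettes were kept at 1 g, over 15 min in Ctrl and over 60 min in Ctrl60. In the second experiment the cells were spun at 300 g for 5 min and lysed 1 min (wait1min), 4 min (wait4min) or 15 min (wait15min) after the stop, or were warmed to 42 °C for 5 min (heat), and the controls (CtrlA) were lysed directly. Each 9 g group had 6 libraries, except hypg15 with 5 after library 75 was left out, and each group of the second experiment had 4. The column names mention HEPES for Ctrl60 and for no other group, hypg60 included. If only Ctrl60 held it, HEPES and 60 min of 9 g cannot be told apart in any result that uses Ctrl60. The column names also call wait1min instant and wait4min 1min, where the titles and treatment labels give the waits used here.

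MAP kinases (ERK, JNK and p38) carry signals from receptors and stresses to transcription, and are active when both a threonine and a tyrosine of their activation loop are phosphorylated. Dual specificity phosphatases remove both phosphates and so end the signal. DUSP1, DUSP2, DUSP4 and DUSP5 are inducible nuclear enzymes, DUSP6 and DUSP7 are cytoplasmic enzymes that prefer ERK, and DUSP8, DUSP10 and DUSP16 prefer JNK and p38. In T cells several of them are immediate early genes of receptor signalling, and DUSP2 was first described in activated lymphocytes as PAC-1.

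Total counts ran from 22634465 to 41893490 per library over the 79 libraries used. Library 75 had no counts at all on chromosomes 4 to 9, X, Y and MT, where the other libraries had 6463932 to 12196630, and none on chromosome 3 for any gene that starts after position 15738515. DUSP1, DUSP4 and DUSP7 lie in this gap, and the library was left out. All 10 T cell markers (such as CD3D and BCL11B) had a mean of at least 0.5 CPM over the 79 libraries. By contrast, 3 of 4 B cell markers and all 4 myeloid, 4 erythroid and 3 epithelial markers had a mean under it. The remaining B cell marker was not low: the 4 together had 41.7 to 49.3 CPM per kb in Ctrl, beside 1435 to 1651 for the T cell markers. Across genes, the log2 fold change was related to the GC content of the gene, with Spearman's rho between 0.0985 (hypg7) and 0.683 (hypg3) at 9 g and between −0.701 (wait1min) and −0.672 (wait15min) at 300 g. These values describe 15682 to 16936 genes per comparison, which are not independent replicates, and fold changes are therefore also given below with a GC content offset where it changed a call. hypg3 and hypg15 carry library numbers 69 to 80 and Ctrl carries 1 to 6, so these times and this numbering cannot be told apart.

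In unstressed cells DUSP2 had the highest level, in CPM (counts relative to the library total scaled by its TMM factor) per kb of exon. In Ctrl, DUSP2 was at 32.7 ± 2.34 CPM per kb (SD, n = 6), DUSP1 at 13.9 ± 0.330, DUSP7 at 9.18 ± 0.446 and DUSP5 at 1.57 ± 0.166. DUSP10 (1.17 ± 0.0986) and DUSP16 (1.08 ± 0.0503) followed with overlapping libraries, as did DUSP8 (0.388 ± 0.0522) and DUSP6 (0.361 ± 0.117). DUSP4 was lowest at 0.0206 ± 0.0121 CPM per kb. Apart from these pairs, no neighbours in the Ctrl order had overlapping libraries. The Ctrl60 libraries gave the same order, with DUSP5 and DUSP10 also overlapping. In CtrlA, whose values were scaled separately, DUSP1 (14.2 ± 0.537, n = 4) and DUSP7 (13.9 ± 0.419) overlapped, and DUSP16 (1.54 ± 0.0891) lay above DUSP10 (1.37 ± 0.0756) with no overlap.

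**Figure D1:**
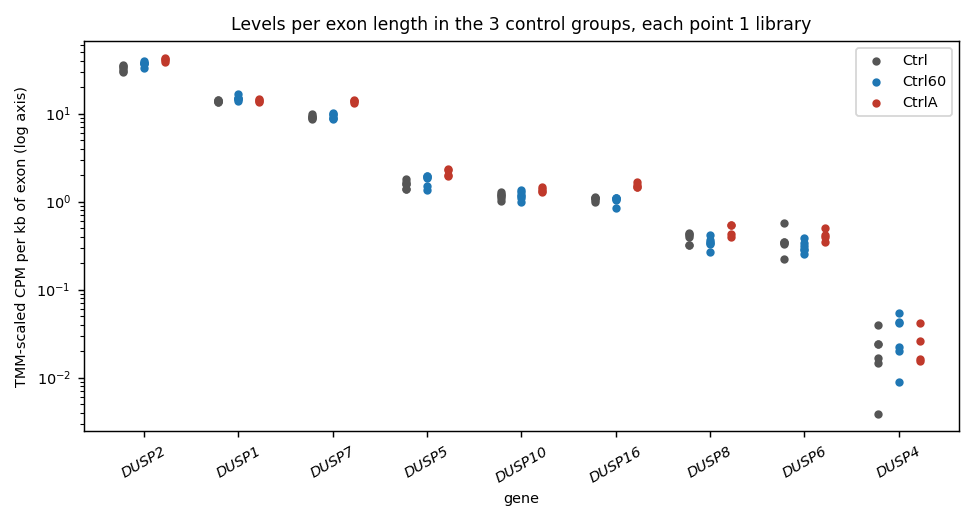
Level of the 9 genes per exon length in the control libraries, as TMM-scaled CPM per kb on a log axis; each point is 1 library of Ctrl, Ctrl60 (n = 6 each) or CtrlA (n = 4). DUSP2 is highest and DUSP4 lowest in all 3 groups.

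DUSP4, an inducible nuclear phosphatase of ERK and JNK, was too low to test in any of the 18 comparisons. It had 0 to 17 counts per library, with 1, 5 and 10 counts as the lowest, median and highest in Ctrl and 3, 4 and 11 in CtrlA. The other 8 genes passed the filter in all comparisons. DUSP6 (19 to 77 counts per library) and DUSP8 (31 to 141) were the lowest of these.

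The promoters of DUSP1, DUSP2, DUSP7 and DUSP8 are printed because DUSP7 and DUSP8 rose at most times of 9 g while DUSP1 and DUSP2 fell at 60 min. They are RefSeq sequences (GRCh38.p14), 250 bases before to 50 after the start, all from the minus strand and written 5′ to 3′. The motifs searched on both strands were the full cAMP response element TGACGTCA, its half-site TGACG (which the full element contains), the TATA box TATAAA, the AP-1 site TGANTCA, the serum response element by its CArG core, the GC box GGGCGG, the CCAAT box and the E-box CACGTG. Capitals mark response elements, half-sites, AP-1 sites and TATA boxes, and a sequence without capitals held none of them. DUSP1 lies at chr5:172771146-172771445, DUSP2 at chr2:96145391-96145690, DUSP7 at chr3:52056522-52056821 and DUSP8 at chr11:1572222-1572521.
DUSP1: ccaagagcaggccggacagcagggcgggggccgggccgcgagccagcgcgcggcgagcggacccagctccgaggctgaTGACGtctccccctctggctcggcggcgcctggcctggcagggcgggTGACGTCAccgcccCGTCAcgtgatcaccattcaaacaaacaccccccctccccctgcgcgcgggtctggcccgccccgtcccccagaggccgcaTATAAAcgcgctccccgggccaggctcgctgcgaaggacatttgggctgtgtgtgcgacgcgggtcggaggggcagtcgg
DUSP2: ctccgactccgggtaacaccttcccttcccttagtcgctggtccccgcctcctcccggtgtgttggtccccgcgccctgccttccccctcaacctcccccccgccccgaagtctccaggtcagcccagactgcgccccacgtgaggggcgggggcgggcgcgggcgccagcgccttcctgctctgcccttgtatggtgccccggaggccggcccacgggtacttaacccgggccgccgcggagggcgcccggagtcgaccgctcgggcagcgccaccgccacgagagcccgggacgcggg
DUSP7: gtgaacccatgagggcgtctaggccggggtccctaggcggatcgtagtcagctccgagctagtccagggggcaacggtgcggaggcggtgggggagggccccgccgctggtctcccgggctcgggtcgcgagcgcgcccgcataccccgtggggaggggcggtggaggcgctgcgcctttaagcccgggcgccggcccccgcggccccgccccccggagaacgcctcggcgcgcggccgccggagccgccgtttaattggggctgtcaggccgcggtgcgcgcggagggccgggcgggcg
DUSP8: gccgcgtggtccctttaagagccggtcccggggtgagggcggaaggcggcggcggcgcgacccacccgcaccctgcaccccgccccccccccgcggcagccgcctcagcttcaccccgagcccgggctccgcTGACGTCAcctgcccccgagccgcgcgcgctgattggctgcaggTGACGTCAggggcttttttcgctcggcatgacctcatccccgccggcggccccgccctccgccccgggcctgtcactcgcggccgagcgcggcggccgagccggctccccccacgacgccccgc

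The DUSP1 promoter held a full response element at −125 from the start, further half-sites at −172 and −111, a TATA box at −30, an E-box at −108 and 4 GC boxes. DUSP8 held full elements at −118 and −74, a CCAAT box at −86 and 4 GC boxes. DUSP2 and DUSP7 had neither the full element, the half-site nor the TATA box in this window, each had 3 GC boxes, DUSP2 had an E-box at −113, and DUSP7 had a CCAAT box at +6. None of the 4 held an AP-1 site or a serum response element, and DUSP1 and DUSP2 held no CCAAT box. Among 35116 RefSeq promoters of the same length, 1.8% held the full element, 24.6% the half-site, 11.5% the TATA box, 7.3% the E-box, 45.0% the GC box, 34.6% the CCAAT box, 7.7% the AP-1 site and 1.3% the serum response element. Promoters were found for 7 of the 9 genes. Those of DUSP6, DUSP10 and DUSP16, not printed, held no full element, and 1 of DUSP10 held a half-site at −4. These are matches of letters and say nothing of binding in these cells.

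At 9 g the family did not move as a group: DUSP10 fell and DUSP7 and DUSP8 rose at most times, DUSP2 fell at 4 times, DUSP16 rose at 3, and DUSP1 rose at hypg15 and fell at hypg60. A call is an adjusted p under 0.05 in edgeR's quasi-likelihood test against the own control. In 64 tests (8 genes at 8 times) there were 18 calls higher and 13 lower, or 10 and 17 with the GC content offset. At hypg20s, 3 genes were higher and 1 lower, where 6.66% and 8.58% of all genes tested were called higher and lower. At hypg75s it was 3 and 2 (16.8% and 14.4% of all genes), at hypg3 2 and 2 (16.9% and 24.4%), at hypg5 2 and 1 (4.33% and 1.69%), and at hypg7 1 and 2 (6.64% and 6.19%). At hypg9 it was 1 and 1 (11.3% and 8.32%), at hypg15 3 and 1 (25.4% and 27.9%), and at hypg60 3 and 3 (17.1% and 13.0%). The median log2 fold change of the 8 genes lay between −0.10 (hypg7) and 0.15 (hypg60), and that of all genes tested between −0.02 and 0.02. The first 7 comparisons share the Ctrl libraries, so their calls are not independent of each other. With 3 surrogate variables as covariates the 2-group fits gave 1 call higher and 0 lower, and a fit of all 9 g groups with the same variables, added after seeing the data, gave 6 and 10. In these bulk samples a smaller share of cells with a given RNA and less of that RNA per cell cannot be told apart. The labels do not say whether the libraries of a group came from separate cultures, so the p-values measure the spread between these samples only.

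**Figure D2:**
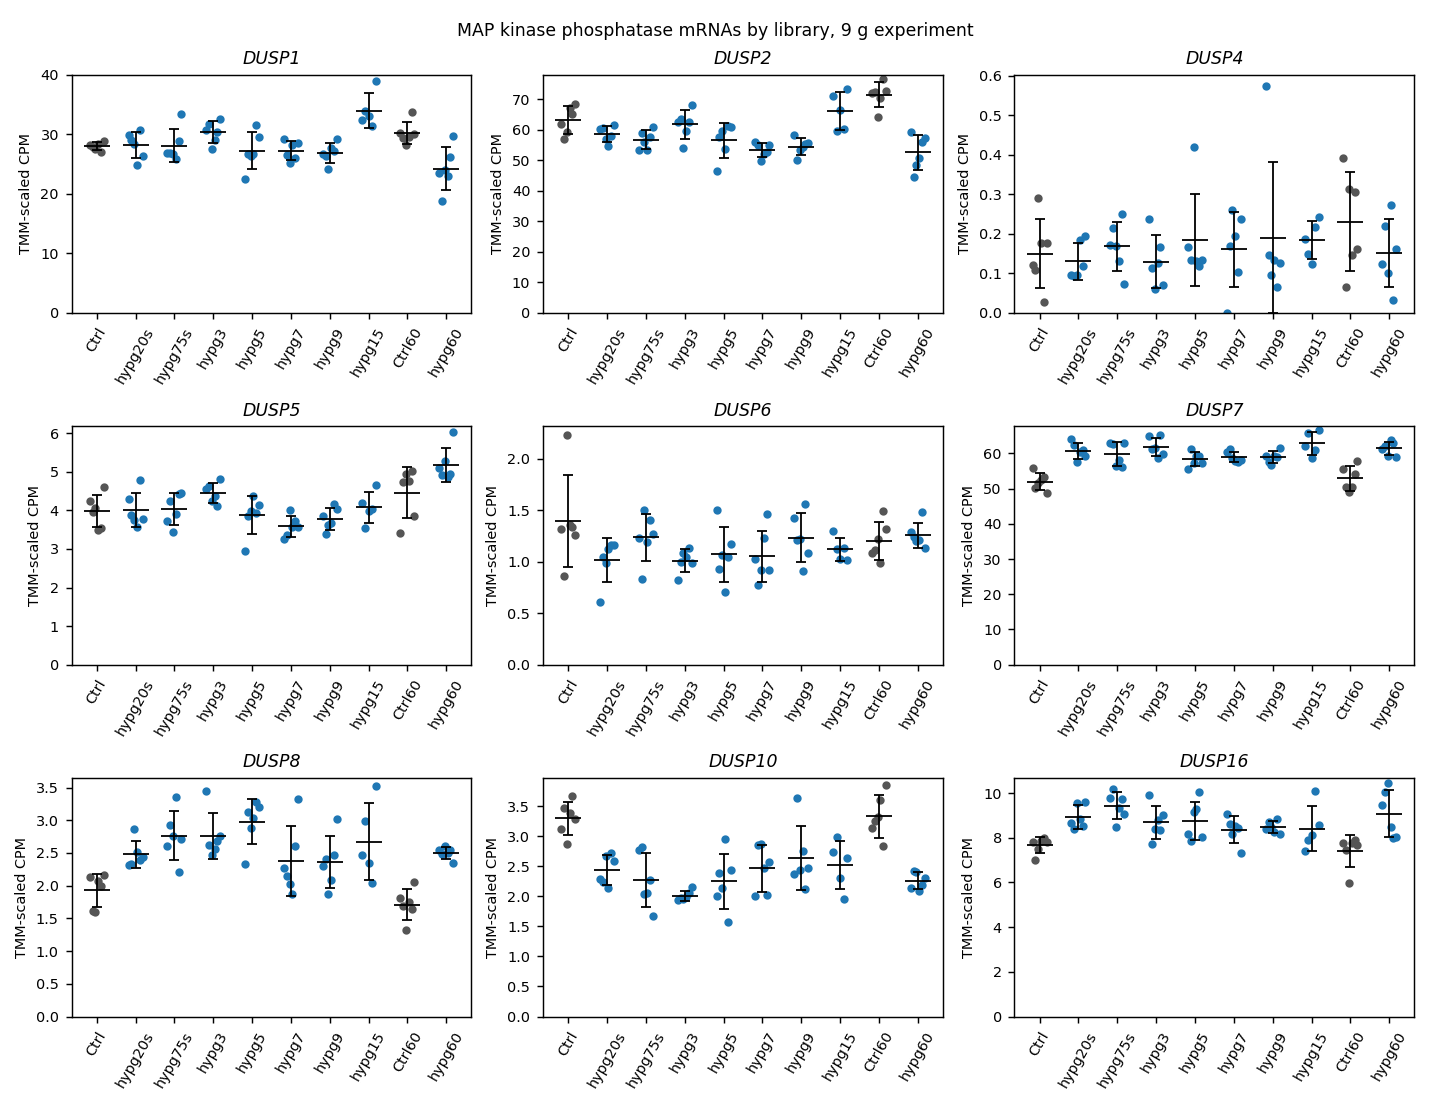
TMM-scaled CPM of the 9 genes in each library of the 9 g experiment (n = 6 per group, 5 for hypg15); points are libraries, bars the mean and SD, grey the 1 g controls. DUSP10 is lower and DUSP7 higher than the controls at most times, and DUSP1 and DUSP2 are lower at hypg60.

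DUSP1 (chr5:172768096-172771195, minus strand), the nuclear phosphatase also known as MKP-1 that acts on p38, JNK and ERK, was called against its control at hypg15 and hypg60. Ctrl libraries had 27.0, 28.1 and 28.9 CPM as the lowest, median and highest. The 5 hypg15 libraries had 32.4, 34.0, 33.1, 31.4 and 39.0 CPM, all above Ctrl. The log2 fold change was 0.27 ± 0.06 (SE, adjusted p = 0.0015, edgeR). A GC content offset brought it to 0.06 (adjusted p = 0.39), and surrogate variables over all groups to −0.0913 (adjusted p = 0.63). At 60 min the direction was the opposite. Ctrl60 had 28.2, 29.8 and 33.7 CPM and hypg60 18.7, 23.8 and 29.6, with some overlap, and the log2 fold change was −0.31 ± 0.09 (adjusted p = 0.016, edgeR). At the other 6 times values lay between −0.06 (hypg9) and 0.09 (hypg3), with no call, although other settings gave calls in either direction: the offset at hypg9 (−0.11, adjusted p = 0.041), surrogate variables over all groups at hypg5 (−0.15, adjusted p = 0.047), and total counts (0.11, adjusted p = 0.026) and DESeq2 (0.12, adjusted p = 0.046) at hypg3.

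The change of DUSP1 at 60 min differed from that at 15 min when tested directly. In a model of the 4 groups, the difference of the log2 fold changes was −0.58 ± 0.11 (adjusted p = 0.0041, edgeR). The offset left it at −0.49 (adjusted p = 0.00022). DUSP2 differed as well, by −0.48 ± 0.10 (adjusted p = 0.0065), or −0.30 with the offset. These were the 2 of 8 genes called in this test, where 2.87% of all genes tested were.

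DUSP2 (chr2:96143169-96145440, minus strand), a nuclear phosphatase of ERK and p38 in lymphocytes, was lower at 4 times. Ctrl had 57.0, 63.5 and 68.5 CPM as the lowest, median and highest. At hypg7 the libraries had 49.7, 53.9 and 55.9 CPM, all below Ctrl, with a log2 fold change of −0.24 ± 0.05 (adjusted p = 0.0072, edgeR). The change was −0.14 ± 0.04 at hypg75s (adjusted p = 0.027) and −0.21 ± 0.05 at hypg9 (adjusted p = 0.0078), with overlapping libraries. A model of all groups ended the hypg75s call (−0.16, adjusted p = 0.059). The largest change was at 60 min: Ctrl60 had 64.1, 72.2 and 76.4 CPM and hypg60 44.4, 53.3 and 59.0, with no overlap. Here DUSP2 fell to 0.739 times the control (log2 −0.44 ± 0.07, adjusted p = 0.00032, edgeR). The 5 hypg15 libraries (71.0, 59.4, 66.3, 60.2 and 73.2 CPM) overlapped Ctrl, and the value of 0.06 ± 0.06 did not pass the test. Under the GC content offset DUSP2 was below its control with an adjusted p under 0.05 at all 8 times, from −0.25 at hypg20s to −0.59 at hypg60, and it was −0.28 at hypg15. Surrogate variables over all groups ended the hypg9 call (−0.12, adjusted p = 0.27) and added hypg20s and hypg5. The exon length offset added hypg20s (−0.15, adjusted p = 0.015), hypg3 (−0.12, adjusted p = 0.021) and hypg5 (−0.19, adjusted p = 0.043), and total counts added hypg20s (−0.12, adjusted p = 0.047).

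DUSP5 (chr10:110497907-110511533, plus strand), a nuclear phosphatase specific for ERK, gave no call at 9 g. Its values ran from −0.15 ± 0.08 (hypg7) to 0.22 ± 0.11 at hypg60 (adjusted p = 0.13, edgeR). Of the alternatives run there, a model of all groups alone called the latter (adjusted p = 0.04). Ctrl60 had 3.40, 4.75 and 5.02 CPM and hypg60 4.88, 5.01 and 6.03.

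The cytoplasmic ERK phosphatases behaved unlike each other. DUSP7 (chr3:52048919-52056571, minus strand) was higher at all 8 times, by 0.16 ± 0.04 (hypg5) to 0.27 ± 0.05 (hypg15) on the log2 scale, with adjusted p from 0.00042 (hypg15) to 0.037 (hypg5). Ctrl had 48.8, 52.0 and 56.0 CPM, and the lowest of all 9 g libraries compared with it had 55.5. The hypg20s libraries had 57.7, 60.7 and 64.0 CPM and the hypg15 libraries 62.1, 65.7, 58.8, 61.0 and 66.8. Only hypg5 overlapped its control, and its call was lost with no filter on low counts (adjusted p = 0.11). Ctrl60 (49.0, 52.4 and 57.8 CPM) and hypg60 (59.1, 61.8 and 63.8) were apart as well. The call remained under the GC content offset at hypg7 (0.16) and hypg9 (0.12) and was lost at the other 6, with 0.01 at hypg3 and −0.01 at hypg15. Surrogate variables over all groups ended the calls at hypg5, hypg9, hypg15 and hypg60, with values of 0.12 to 0.19.

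DUSP6 (chr12:89347235-89352501, minus strand), a feedback phosphatase that ERK signalling induces, was called only at hypg3. Ctrl had 0.859, 1.33 and 2.23 CPM and hypg3 0.818, 1.02 and 1.13. The log2 fold change was −0.50 ± 0.19 (adjusted p = 0.044, edgeR), and the libraries overlapped. One Ctrl library (number 3) held the value of 2.23, and without it the change was −0.32 ± 0.14 (adjusted p = 0.10, edgeR). The call was also lost with total counts (adjusted p = 0.06), RLE factors (adjusted p = 0.052), DESeq2 (adjusted p = 0.066) and surrogate variables over all groups (adjusted p = 0.16). The other 7 values lay between −0.46 (hypg20s) and 0.08 (hypg60).

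Among the phosphatases of JNK and p38, DUSP10 (MKP-5, chr1:221701424-221742089, minus strand) fell at 7 of 8 times. Ctrl had 2.87, 3.34 and 3.67 CPM. At hypg20s the libraries had 2.15, 2.44 and 2.72 CPM, all below Ctrl, so that DUSP10 was at 0.739 times the control after 20 s (log2 −0.44 ± 0.09, adjusted p = 0.0074, edgeR). The lowest level was at hypg3, with 1.94, 1.98 and 2.15 CPM and a log2 fold change of −0.74 ± 0.08 (adjusted p = 2.3e-05). The change was −0.51 ± 0.12 at hypg75s, −0.55 ± 0.13 at hypg5, −0.43 ± 0.11 at hypg7 and −0.39 ± 0.12 at hypg15. At hypg9 it was −0.31 ± 0.12 and missed the threshold (adjusted p = 0.074, edgeR). At 60 min, Ctrl60 had 2.83, 3.29 and 3.85 CPM and hypg60 2.08, 2.25 and 2.43, with no overlap and a change of −0.56 ± 0.10 (adjusted p = 0.00066). The GC content offset ended 1 of these calls, at hypg15 (−0.27, adjusted p = 0.080). Surrogate variables over all groups kept those at hypg20s, hypg3 and hypg5 and ended 4, at hypg75s (−0.37, adjusted p = 0.099), hypg7 (−0.30, adjusted p = 0.26), hypg15 (−0.0327, adjusted p = 0.97) and hypg60 (−0.31, adjusted p = 0.41).

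DUSP8 (chr11:1554051-1572271, minus strand), a phosphatase of JNK and p38 known mainly from brain and heart, rose at 6 of 8 times. Ctrl had 1.59, 2.03 and 2.17 CPM. The libraries had 2.22, 2.74 and 3.36 CPM at hypg75s and 2.34, 3.08 and 3.28 at hypg5, all above Ctrl. The log2 fold change was 0.54 ± 0.11 (adjusted p = 0.0027, edgeR) and 0.62 ± 0.11 (adjusted p = 0.0058) at these times. It was 0.35 ± 0.10 at hypg20s, 0.48 ± 0.11 at hypg3 and 0.47 ± 0.15 at hypg15. The hypg20s call was lost without Ctrl library 3 (adjusted p = 0.074), with no filter on low counts (adjusted p = 0.056) and in a model of all groups (adjusted p = 0.059), and the hypg15 call was lost without library 80 (adjusted p = 0.054). At 60 min, Ctrl60 had 1.32, 1.72 and 2.06 CPM and hypg60 2.35, 2.52 and 2.60, with no overlap and a change of 0.56 ± 0.11 (adjusted p = 0.0013, edgeR). At hypg7 (0.31 ± 0.14) and hypg9 (0.29 ± 0.12) it did not pass. The GC content offset kept the calls at hypg75s (0.37), hypg5 (0.51) and hypg60 (0.41) and ended those at hypg20s, hypg3 and hypg15. With surrogate variables over all groups only the hypg5 call remained (0.44, adjusted p = 0.035), and hypg60 was at 0.16 (adjusted p = 0.71).

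DUSP16 (MKP-7, chr12:12473282-12562863, minus strand), which binds JNK and p38 and shuttles between nucleus and cytoplasm, rose at 3 times. Ctrl had 7.01, 7.83 and 7.98 CPM, hypg20s 8.38, 8.75 and 9.59 and hypg75s 8.48, 9.54 and 10.2, with no overlap in either case. The log2 fold change was 0.21 ± 0.06 (adjusted p = 0.03, edgeR) and 0.31 ± 0.06 (adjusted p = 0.00097). The first was lost without Ctrl library 3 (adjusted p = 0.065) and with no filter on low counts (adjusted p = 0.084). At hypg60 it was 0.30 ± 0.10 (adjusted p = 0.031), with 5.98, 7.71 and 7.89 CPM in Ctrl60 and 8.00, 8.99 and 10.4 in hypg60, and with no filter it was not called (0.29, adjusted p = 0.077). The other 5 values were between 0.12 and 0.19. The GC content offset left all 3 calls in place and added hypg3 (0.20, adjusted p = 0.021) and hypg9 (0.15, adjusted p = 0.037). Total counts added hypg3 (0.17, adjusted p = 0.049) and hypg9 (0.19, adjusted p = 0.025), the exon length offset hypg3 (0.21, adjusted p = 0.027) and hypg15 (0.24, adjusted p = 0.033), and RLE factors (adjusted p = 0.048) and a model of all groups (adjusted p = 0.045) hypg3. With surrogate variables over all groups only the hypg75s call remained (0.33).

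Of the 8 genes none was called in hypg9 against hypg75s, where 5.0% of all genes tested were, with 1 gene (DUSP16, −0.16 ± 0.06) at an unadjusted p under 0.05 and none called by DESeq2. None was called in hypg15 against hypg3 (2.54% of all genes), with DUSP1 (0.16 ± 0.07) and DUSP10 (0.32 ± 0.12) at an unadjusted p under 0.05 and none called by DESeq2. The controls at 60 and 15 min of 1 g gave no called member either (0.0124% of all genes), with DUSP1 (0.10 ± 0.05) and DUSP2 (0.17 ± 0.05) at an unadjusted p under 0.05 and none called by DESeq2. The share of counts from mitochondrial genes was 1.16% to 1.38% in Ctrl60 and 2.12% to 2.67% in hypg60, and 1.82% to 3.32% in hypg15 beside 1.33% to 1.60% in Ctrl. The hypg75s, hypg3, hypg5, hypg7 and hypg9 libraries, from 1.67% to 2.33%, also lay above Ctrl. RN7SL1, RN7SL2 and RN7SK together took 6.27% to 8.76% of the counts in hypg15 and 4.92% to 5.89% in Ctrl. The part of these shares in the 9 g results was not tested.

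After 300 g for 5 min 6 of the 8 tested genes were lower in all 3 comparisons. DUSP1, DUSP2 and DUSP5, the tested nuclear phosphatases, were at 0.463 to 0.575 times the control, and DUSP7, DUSP8 and DUSP16 were lower as well. DUSP10 was called at wait1min only and DUSP6 in no comparison. With the GC content offset 5 of these tests were called higher, as given for DUSP6, DUSP7 and DUSP8 below. Of 8 genes, 7 were called lower at wait1min and 6 each at wait4min and wait15min, and none higher (none at an unadjusted p under 0.05, and none by DESeq2). DESeq2 called 5 lower at wait1min, without DUSP10 and DUSP16. Of all genes tested, 40.1%, 40.6% and 40.5% were called lower and 41.4%, 41.7% and 41.8% higher in these comparisons. The median log2 fold change of the 8 genes was −0.71, −0.44 and −0.50, and that of all genes 0.01 in each. Scaling by total counts moved the median of all genes to 0.25, 0.27 and 0.27. The summed level of the T cell markers was 1616 to 1658 CPM per kb in CtrlA and 981 to 1074 in the 3 centrifuged groups. These 10 markers went both ways, with 3 called higher and 6 lower at each wait. Their median log2 fold changes were −0.26, −0.25 and −0.22. RN7SL1, RN7SL2 and RN7SK together took 3.63% to 3.96% of the counts in CtrlA and 1.35% to 1.83% in the centrifuged groups. Mitochondrial genes took 2.03% to 2.12% in CtrlA and 2.23% to 2.48% in the centrifuged groups. Genes with a count numbered 25205 to 26196 in CtrlA and 26438 to 27185 in the centrifuged groups. The part of these measures in the 300 g results was not tested. The 3 comparisons and that of heat share the CtrlA libraries.

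**Figure D3:**
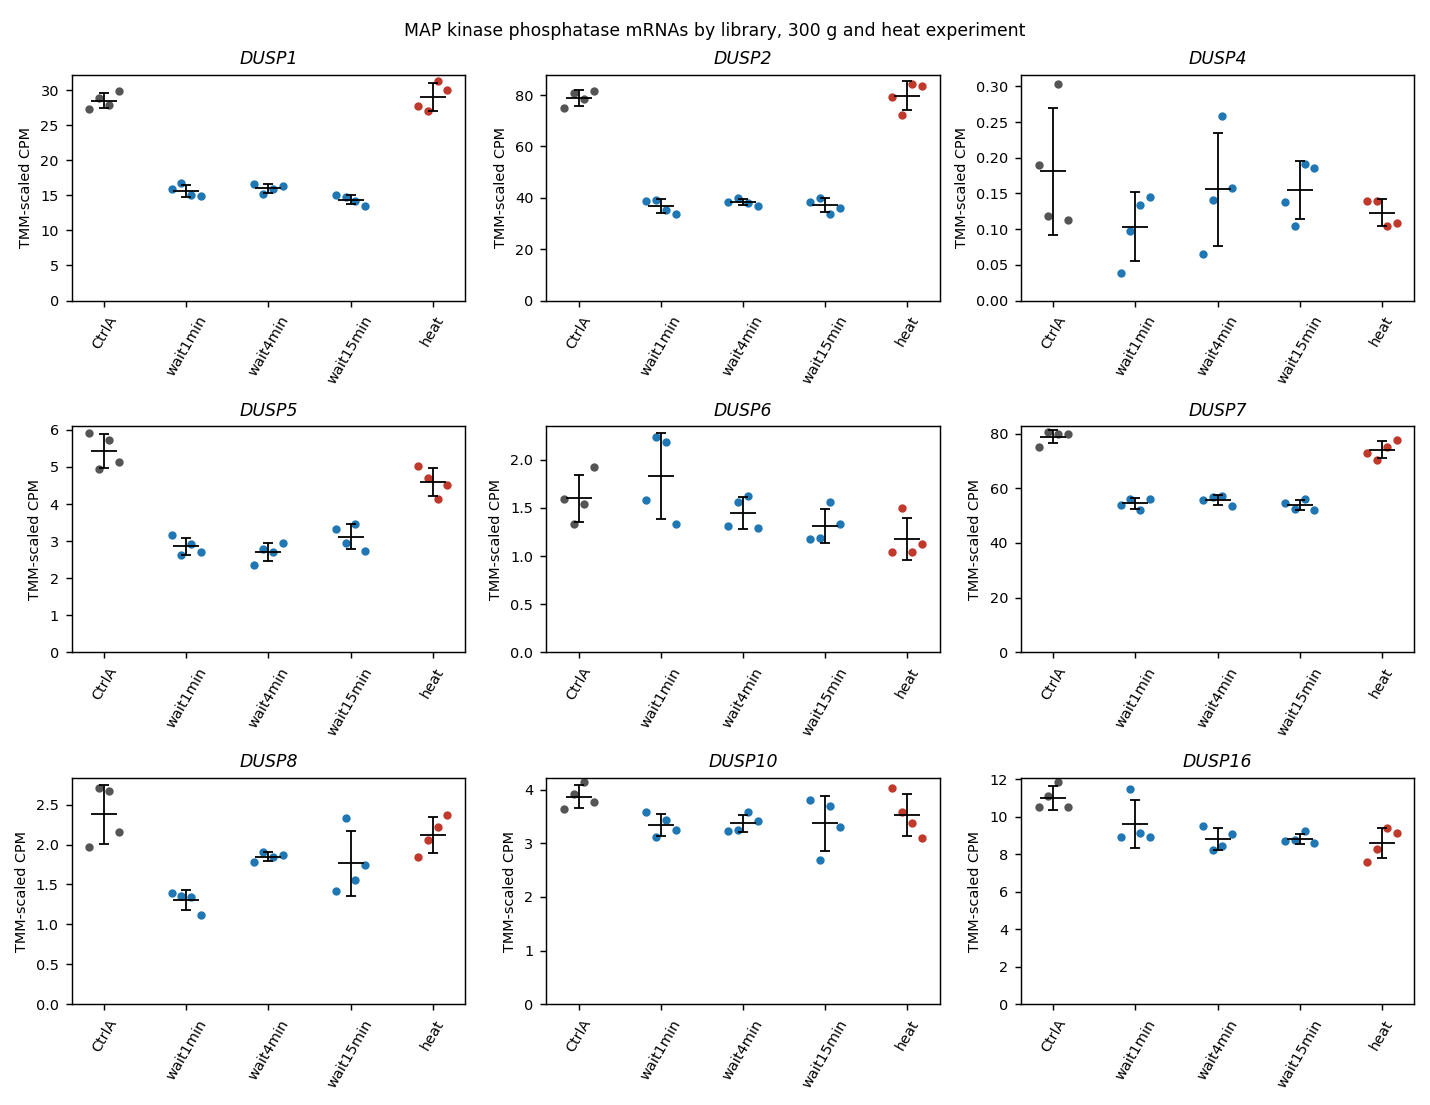
TMM-scaled CPM of the 9 genes in each library of the 300 g and heat experiment (n = 4 per group); points are libraries, bars the mean and SD. DUSP1, DUSP2, DUSP5 and DUSP7 are below the CtrlA libraries in all 3 centrifuged groups, and the heat libraries overlap CtrlA for all genes but DUSP16. At wait1min 40.1% of all genes tested were called lower and 41.4% higher, and after heat 10.2% and 10.6%. The share of all genes without overlap is not given.

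With TMM scaling DUSP2 had the lowest fold change at each wait. The CtrlA libraries had 74.8, 80.7, 78.3 and 81.7 CPM and the wait1min libraries 38.9, 39.2, 35.4 and 33.5, less than all controls. The log2 fold change was −1.11 ± 0.05 (adjusted p = 1.7e-12, edgeR). The wait4min libraries had 38.4, 39.7, 38.1 and 37.0 CPM (−1.04 ± 0.04, adjusted p = 2.8e-16) and the wait15min libraries 38.5, 40.0, 33.8 and 36.1 (−1.09 ± 0.05, adjusted p = 2.4e-13). The level thus stayed below the control through 15 min. Under the offset the 3 changes were −0.36, −0.35 and −0.39 and stayed called, while DUSP5 at wait4min (−0.45) and DUSP1 at wait15min (−0.43) were then lower than DUSP2.

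DUSP1 had 27.3, 28.9, 27.9 and 29.8 CPM in CtrlA and 15.9, 16.8, 15.1 and 14.8 at wait1min. It fell by 0.87 ± 0.06 on the log2 scale (adjusted p = 1.9e-10, edgeR). At wait4min (16.6, 15.2, 15.8 and 16.3 CPM) the change was −0.83 ± 0.05 and at wait15min (15.1, 14.8, 14.3 and 13.5 CPM) −0.98 ± 0.05. Under the offset these were −0.29, −0.28 and −0.43, still called. DUSP5 went from 5.92, 4.95, 5.74 and 5.13 CPM in CtrlA to 3.16, 2.62, 2.92 and 2.71 at wait1min, a change of −0.94 ± 0.10 (adjusted p = 1.5e-07, edgeR), followed by −1.01 ± 0.10 at wait4min and −0.80 ± 0.11 at wait15min. None of its centrifuged libraries reached the control range. With the offset, DUSP5 was at −0.35, −0.45 and −0.23, of which the last missed the threshold (adjusted p = 0.063).

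DUSP7 had 75.2, 80.4, 79.7 and 79.7 CPM in CtrlA and 53.8, 56.0, 52.0 and 56.0 at wait1min, with no overlap. The log2 fold changes were −0.54 ± 0.04 (adjusted p = 2.5e-09, edgeR), −0.50 ± 0.04 and −0.55 ± 0.04 at the 3 waiting times. The direction turned with the GC content offset, to 0.18 ± 0.04 (adjusted p = 0.00033), 0.17 ± 0.03 (adjusted p = 8e-06) and 0.12 ± 0.04 (adjusted p = 0.0029), each called higher. DUSP6 did not pass the test, with 0.20 ± 0.18, −0.15 ± 0.16 and −0.28 ± 0.17. Its libraries had 1.59, 1.33, 1.54 and 1.92 CPM in CtrlA and 1.58, 2.23, 2.19 and 1.34 at wait1min. With the offset it was higher at wait1min (0.50 ± 0.18, adjusted p = 0.018), and with total counts as the scale as well (0.45, adjusted p = 0.033).

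DUSP8 had 1.97, 2.71, 2.68 and 2.15 CPM in CtrlA and 1.39, 1.36, 1.34 and 1.12 at wait1min, with no overlap and a change of −0.88 ± 0.16 (adjusted p = 5.4e-05, edgeR). The wait4min libraries (1.78, 1.91, 1.85 and 1.86 CPM) were closer to the control, at −0.37 ± 0.14 (adjusted p = 0.019), and the wait15min libraries (1.42, 2.33, 1.56 and 1.74) overlapped it, at −0.44 ± 0.17 (adjusted p = 0.022). The wait4min call was lost without CtrlA library 50 (−0.32) or 51 (−0.30), and the wait15min call without CtrlA library 50 (−0.38) or 51 (−0.37) or wait15min library 61 (−0.35) or 63 (−0.39). Under the offset DUSP8 was at −0.13 (adjusted p = 0.47), 0.32 (adjusted p = 0.044) and 0.26 (adjusted p = 0.15), so the direction turned at the later waits. Scaling by total counts left −0.64 at wait1min, still called, and −0.12 and −0.18 at the later waits, not called.

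DUSP16 had 10.5, 11.1, 11.8 and 10.5 CPM in CtrlA and 9.50, 8.21, 8.46 and 9.07 at wait4min, with no overlap. Its log2 fold change was −0.32 ± 0.07 at wait4min (adjusted p = 0.00024, edgeR) and at wait15min (adjusted p = 0.00025). At wait1min it was −0.20 ± 0.09 (adjusted p = 0.045), a call that was lost without CtrlA library 50 (−0.19) or 51 (−0.15) or wait1min library 53 (−0.16), 55 or 56 (−0.17 each). DUSP10 had 3.64, 3.93, 4.14 and 3.77 CPM in CtrlA and 3.59, 3.11, 3.43 and 3.25 at wait1min, all below. It was called only there, at −0.23 ± 0.10 (adjusted p = 0.047), and this was lost without any 1 of the 8 libraries (−0.25 to −0.18), with no filter (adjusted p = 0.062), in a model of all groups (adjusted p = 0.065) and with the exon length offset (0.06, adjusted p = 0.63). Scaling by total counts left neither gene called, with values between −0.06 and 0.06. Under the offset DUSP10 was lower at all 3 waiting times (−0.35, −0.32 and −0.32), and DUSP16 was not called at wait1min (−0.16, adjusted p = 0.098).

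**Figure D4:**
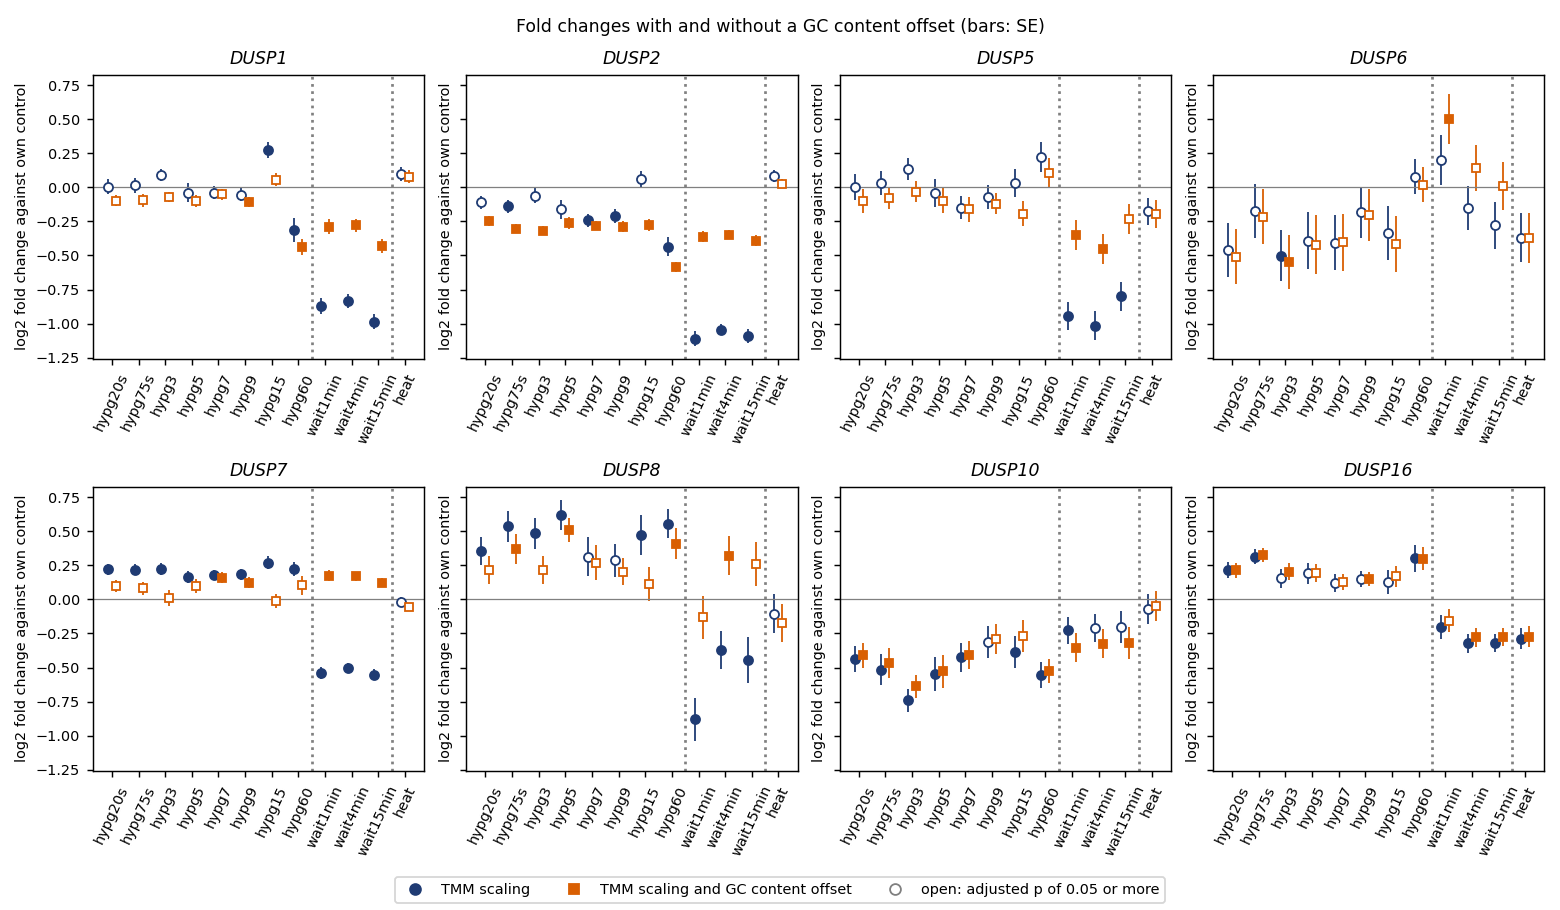
Log2 fold change against the own control for the 8 tested genes in the 12 comparisons, with TMM scaling (blue circles) and with a GC content offset added (orange squares); bars are SE and open symbols have an adjusted p of 0.05 or more. DUSP7 changes sign with the offset at 300 g, and with the offset DUSP2 is below its control at all 8 times of 9 g.

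The GC content of the 8 genes ran from 45.6% (DUSP10) and 47.0% (DUSP16) over 49.9% (DUSP6), 55.1% (DUSP1), 55.5% (DUSP5) and 59.6% (DUSP7) to 63.3% (DUSP2) and 64.4% (DUSP8). The 2 genes of lowest GC content were those whose log2 fold changes moved least with the offset at 300 g. DUSP2, DUSP7 and DUSP8 moved most. The offset is itself fitted on GC content, so this order follows from how the offset is built. These are 8 genes that share their libraries, and no test was made of this order.

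**Figure D5:**
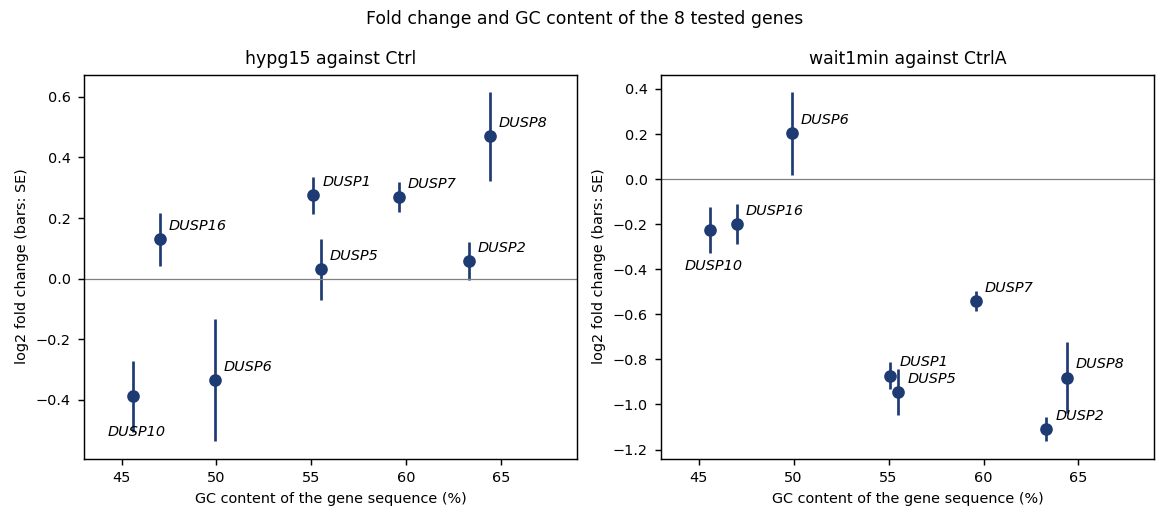
Log2 fold change (bars: SE) of the 8 tested genes against the GC content of the gene sequence, at hypg15 against Ctrl (n = 5 and 6 libraries) and at wait1min against CtrlA (n = 4 each). DUSP8 and DUSP2, the genes of highest GC content, are at 0.47 and 0.06 at hypg15 and at −0.88 and −1.11 at wait1min.

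Between 1 min and 15 min after the 300 g spin no member was called (0.149% of all genes tested were), with DUSP6 (−0.48 ± 0.19) and DUSP8 (0.44 ± 0.18) at an unadjusted p under 0.05 and none called by DESeq2. All 4 wait15min libraries of DUSP8 lay above the 4 of wait1min, the lowest of them by little (1.42 against 1.39 CPM). For DUSP2 the difference was 0.02 ± 0.06 and for DUSP7 −0.01 ± 0.04.

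Heat at 42 °C left most of these genes near the control. Only DUSP16 was called lower and none higher, where 10.2% and 10.6% of all genes tested were called. No member was higher at an unadjusted p under 0.05 or by DESeq2. The heat libraries of DUSP16 had 7.60, 8.29, 9.38 and 9.14 CPM, all below the CtrlA libraries, and the log2 fold change was −0.29 ± 0.08 (adjusted p = 0.015, edgeR). This call was lost without CtrlA library 51 (−0.25, adjusted p = 0.062) or heat library 65 (−0.24, adjusted p = 0.052), and with an exon length offset (−0.22, adjusted p = 0.052). DUSP1 had 27.8, 27.0, 31.3 and 30.0 CPM after heat, at 0.10 ± 0.05 (adjusted p = 0.23), and DUSP2 79.4, 72.1, 84.1 and 83.6, at 0.08 ± 0.04 (adjusted p = 0.20). Both overlapped CtrlA.

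Compared directly, heat and 300 g differed for 6 of the 8 genes, where 81.1% of all genes tested were called in either direction. DUSP2 was higher after heat than at wait1min by 1.10 ± 0.06 (adjusted p = 1.5e-12, edgeR), DUSP1 by 0.87 ± 0.06, DUSP8 by 0.68 ± 0.15, DUSP5 by 0.67 ± 0.11 and DUSP7 by 0.43 ± 0.04, all without overlap between the libraries. DUSP6 was lower after heat, by −0.67 ± 0.20 (adjusted p = 0.0046), with 1.04 to 1.5 CPM after heat, and its libraries overlapped. With the GC content offset, DUSP1 (0.29) and DUSP2 (0.31) stayed higher after heat, DUSP5 (0.07) and DUSP8 (−0.12) were not called, and DUSP7 was lower (−0.31, adjusted p = 1.5e-06). With total counts (−0.30, adjusted p = 0.0039), or without wait1min library 53 (−0.24, adjusted p = 0.04), DUSP16 was called as well, lower after heat.

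The kinases that these enzymes act on, and the targets of their pathways, were counted from lists, to be read beside the shares of all genes called higher and lower, 17.1% and 13.0% at hypg60, 41.4% and 40.1% at wait1min and 10.6% and 10.2% after heat. The named genes are those of hypg60, wait1min and heat. More of the ERK cascade was called at hypg75s, hypg3 and hypg15 than at hypg60, and at hypg3 and hypg15 more of all genes were called too. At hypg75s 1 of 13 ERK cascade genes was higher and 4 lower, where 16.8% and 14.4% of all genes were called. It was 3 and 5 at hypg3 (16.9% and 24.4% of all genes) and 4 and 6 at hypg15 (25.4% and 27.9%). Of 13 genes of the ERK cascade, 1 rose and 1 fell at hypg60: KSR1, a scaffold of the cascade, by 0.30 ± 0.07, and MAP2K1, the kinase of ERK, by −0.27 ± 0.06. At wait1min 5 rose and 7 fell, led by the exchange factors SOS1 (2.11 ± 0.08) and SOS2 (1.93 ± 0.06), each at 0.77 with the GC content offset, and after heat 2 fell, among them KSR1 (−0.21 ± 0.05). Of 17 tested genes listed as the JNK and p38 cascade, 2 rose at hypg60, MAPK13 (p38δ, 1.27 ± 0.19) and MAPK7 (0.30 ± 0.08). MAPK7 is ERK5, the kinase of a separate module that the list also held. At hypg75s 5 of the list were higher and 2 lower, where 16.8% and 14.4% of all genes were called. At hypg3 it was 4 and 7, and at hypg15 3 and 6. At wait1min 9 rose and 8 fell, led by MAPK13 (1.36 ± 0.15) and MAP3K7 (TAK1, 1.25 ± 0.05), the latter with the opposite sign under the GC content offset (−0.20). After heat MAPK12 rose (0.18 ± 0.06) and MAP2K3 (−0.12 ± 0.04) was 1 of 2 that fell. The offset ended the MAPK12 call.

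Of 16 tested targets and feedback genes of ERK, 6 rose and 2 fell at hypg60. SPRED3, an inhibitor of the pathway, rose by 1.21 ± 0.12, and the immediate early gene EGR1 fell by 0.83 ± 0.07 on the log2 scale. At wait1min 1 rose (SPRED1, 1.11 ± 0.08, or 0.09 and not called with the offset) and 10 fell, among them JUNB (−0.97 ± 0.06, or −0.21 with the offset). After heat 3 rose, led by EGR3 (1.25 ± 0.23) and FOS (0.78 ± 0.20), and 7 fell. The list medians were 0.13, −0.39 and −0.05 at hypg60, at wait1min and after heat, beside −0.02, 0.01 and 0.01 for all genes.

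Of 10 genes listed as atypical and other dual specificity phosphatases and tested at hypg60, 1 rose (DUSP18, 0.29 ± 0.09, not called with the offset) and 1 fell (DUSP12, −0.40 ± 0.08). At wait1min 1 of 9 tested rose and 7 fell, led by DUSP9 (−1.57 ± 0.31, or −0.82 with the offset) and STYXL1 (−0.72 ± 0.06, or −0.32). DUSP9 is a cytoplasmic ERK phosphatase that was not in the set of members. After heat DUSP28 rose (0.34 ± 0.06). Of 7 tested phosphatases of other classes that act on MAP kinases, PPP2CA fell at hypg60 (−0.25 ± 0.08, not called with the offset). At hypg3 1 was higher and 4 lower, where 16.9% and 24.4% of all genes tested were called higher and lower. At hypg15 0 were higher and 5 lower (25.4% and 27.9% of all genes). Both groups carry the library numbers 69 to 80. At wait1min 2 rose, PPM1B (1.44 ± 0.10) and PPM1A (1.21 ± 0.05, but −0.15 with the offset), and 3 fell. After heat 3 fell, including PPM1B (−0.44 ± 0.13) and PPM1A (−0.20 ± 0.05).

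The patterns of the 3 most abundant members over the 15 groups were set beside those of 16595 genes whose mean count reached 10, by Pearson's r of the group means of log2(CPM + 0.5). The genes most like DUSP1 were JOSD2, EXOSC4 and ZNRD2 (r = 0.990 for each). DUSP2 was most like MRPS26 (0.985), E2F4 (0.984) and CFD (0.983), and DUSP7 most like ZNF671 (0.970), SLC7A1 (0.968) and URB2 (0.965). Among the other members, DUSP2 was the one most like DUSP1 (r = 0.896), and DUSP1 the one most like DUSP2 and most like DUSP7 (r = 0.420 for the latter). Pairs of the less abundant members were not compared. The 15 groups join 2 experiments that were scaled separately, so r also takes in differences between these. For example, DUSP7 had a mean of 52.0 CPM in Ctrl and 78.8 in CtrlA. The part of this in r was not tested. All genes of a group share its libraries and their shift with GC content, and these values of r are descriptions.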

How the data were processed

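RNA of Jurkat T cells was depleted of rRNA and sequenced as stranded read pairs. The authors deposited 1 table of raw counts, whose header names featureCounts 2.0.3 and Ensembl release 104, while the submitters' processing notes list Trim Galore 0.6.5, STAR 2.7.3a, featureCounts 2.0.1, DESeq2 1.28.1 and hg38. Read pairs were counted by strand. The deposited table also gives the summed exon length in bases, and genes on the opposite strand overlap DUSP1, DUSP6, DUSP8 and DUSP16.

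Counts were tested with edgeR 4.0.16 (R 4.3.3; quasi-likelihood F test, TMM, filterByExpr with a minimum count of 10, Benjamini-Hochberg over all genes tested, adjusted p under 0.05), with only the groups compared in each model. The standard error came from the F statistic. Library 75 was left out. Printed CPM use TMM factors computed within each experiment. Symbols and GC content came from other annotation releases.

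The members and gene lists were chosen with earlier results of these data known. All 9 members are named, and of each list the 2 largest changes called at hypg60, wait1min and heat, of which 1 is not reported here. Likeness was computed for the 3 members of highest mean CPM. Alternatives were no filter, total counts, RLE factors, DESeq2 1.42.0, lowess offsets (span 0.3) for GC content or exon length, all groups in 1 model, 3 surrogate variables (sva 3.50.0), library 75 kept and single libraries left out. The fit of all groups with surrogate variables, and leaving out Ctrl library 3 at every time, were added after seeing the data. No 2 libraries of a group were identical.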

Additional observations from a re-analysis of the deposited data

Results flagged for a closer look

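Within groups, 135 sets of a gene and a group were examined for a library far from the rest, of which chance alone would mark about 1 in 20, and 13 libraries stood apart. DUSP1 was at 33.7 CPM in Ctrl60 library 11, above the others at 28.2 to 30.2. DUSP4 was at 0.420 CPM in hypg5 library 27 (others 0.119 to 0.167) and at 0.575 in hypg9 library 37 (others 0.0651 to 0.145), values that rest on few counts. DUSP5 was at 2.95 CPM in hypg5 library 25 (others 3.85 to 4.38) and at 6.03 in hypg60 library 48 (others 4.88 to 5.27). DUSP6 was at 2.23 CPM in Ctrl library 3 (others 0.859 to 1.36) and at 0.613 in hypg20s library 13 (others 0.986 to 1.17). DUSP7 was at 75.2 CPM in CtrlA library 49 (others 79.7 to 80.4). DUSP8 was at 2.86 CPM in hypg20s library 15 (others 2.32 to 2.51), at 3.44 in hypg3 library 69 (others 2.46 to 2.75) and at 1.12 in wait1min library 56 (others 1.34 to 1.39). DUSP16 was at 5.98 CPM in Ctrl60 library 9 (others 7.44 to 7.89) and at 11.5 in wait1min library 54 (others 8.91 to 9.11).

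The change after 60 min at 9 g differed from that after 15 min for DUSP1 (difference of log2 fold changes −0.58) and DUSP2 (−0.48) in the direct test of the difference. In that test Ctrl carries library numbers 1 to 6, Ctrl60 7 to 12, hypg60 43 to 48 and hypg15 76 to 80. The part of this numbering was not tested.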

How the results depend on the processing

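No paired analysis was made. Each library number occurs in only 1 group, and the labels do not say which libraries of different groups belong together, if any do. With the GC content offset, the calls higher at 9 g went from 18 to 10, those lower from 13 to 17, and at 300 g the members called higher went from 0 to 5 and those lower from 19 to 13. It turned DUSP2 at hypg15 to −0.28 and DUSP7 there to −0.0137, DUSP7 to 0.18, 0.17 and 0.12 at wait1min, wait4min and wait15min, DUSP8 to 0.32 and 0.26 at wait4min and wait15min, and, in heat against wait1min, DUSP7 to −0.31 and DUSP8 to −0.12. Total counts gave 1 member higher at 300 g (DUSP6), turned DUSP10 (0.0190) and DUSP16 (0.0426) at wait1min, ended 5 further calls (DUSP6 at hypg3, DUSP8 and DUSP16 at wait4min and wait15min) and added 6 (DUSP1 and DUSP16 at hypg3, DUSP2 at hypg20s, DUSP16 at hypg9 and in heat against wait1min, and the one of DUSP6). The exon length offset turned DUSP10 at wait1min (0.0551), left 0 members lower after heat instead of 1 (DUSP16), and added 5 calls, DUSP2 lower at hypg20s, hypg3 and hypg5 and DUSP16 higher at hypg3 and hypg15. No filter on low counts ended 5 calls (DUSP8 and DUSP16 at hypg20s, DUSP7 at hypg5, DUSP16 at hypg60, DUSP10 at wait1min) and added 0. A model of all groups ended 3 (DUSP8 at hypg20s, DUSP2 at hypg75s, DUSP10 at wait1min) and added 2 (DUSP16 at hypg3, DUSP5 at hypg60). Neither turned a sign.

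With 3 surrogate variables in 2-group fits, 1 call higher and 0 lower remained at 9 g, 1 member was called in hypg9 against hypg75s and 1 in Ctrl60 against Ctrl. Signs turned for DUSP7 (−0.0167), DUSP8 (−0.34) and DUSP10 (0.00812) at hypg75s, DUSP6 (1.00) and DUSP8 (−0.16) at hypg3, DUSP10 (0.37) at hypg5, DUSP2 (0.00140) and DUSP7 (−0.13) at hypg9, and DUSP1 (−0.0598) and DUSP8 (−0.50) at hypg15, with none of these called. Over all groups, the same variables gave 6 calls higher, 1 member in hypg15 against hypg3 (DUSP10) and 1 in Ctrl60 against Ctrl (DUSP2), and −0.0913 for DUSP1 at hypg15. The cause of these shifts was not tested. Keeping library 75, whose DUSP1 and DUSP7 lie in its gap and are at 0, left 1 member called between the 60 and 15 min effects (DUSP2) instead of 2, and DUSP1 and DUSP7 uncalled at hypg15. These losses follow from the gap and say nothing of the other 5 libraries.

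Each library was left out in turn in comparisons with groups of 4 or 5, and Ctrl library 3 in the others against Ctrl. This gave 0 to 1 members lower after heat. It gave 16 to 18 calls higher and 12 to 13 lower at 9 g, and 15 to 19 lower at 300 g. Over members, these fits lost 25 calls, gained 1 and turned no sign of a called value, and 590 values kept their side of the threshold. DESeq2 ended 3 calls (DUSP6 at hypg3, DUSP10 and DUSP16 at wait1min) and added 1 (DUSP1 at hypg3), and RLE factors ended 1 (DUSP6 at hypg3) and added 1 (DUSP16 at hypg3). Neither turned a sign. DUSP4 was too low to test, and DUSP6 and DUSP8 had the lowest counts of the genes tested. The part of depth in their results was not tested.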
